A study of Mus musculus with 8 samples.

Results

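The genes described here are the 10 listed genes that make, degrade, bind and sense retinoic acid or reduce its precursor retinal, out of 24849 genes in the tables. They were chosen by name: Aldh1a2, Aldh1a3, Dhrs3, Cyp26a1, Cyp26b1, Crabp1, Crabp2, Rara, Rarb and Rarg. PolyA+ RNA was sequenced from mESCs of the MPI-II line, a mouse embryonic stem cell line of 129S2/SvPas background, and the sources give no age or sex. There were 2 samples in each of 4 conditions: wild type at day 0, Pcgf5-/- at day 0, wild type at day 6 and Pcgf5-/- at day 6. Day 0 is the undifferentiated state, kept on feeder cells in serum with LIF and the 2i inhibitors CHIR99021 and PD0325901, and day 6 followed 6 days in N2B27 medium, a serum-free medium that lets mESCs turn into neural precursors. Pcgf5 codes for a subunit of a variant Polycomb repressive complex. It was disrupted with TALENs at its second exon, the cells were selected with puromycin and G418, and single colonies were grown on. How many clones the Pcgf5-/- samples represent is not given in the sources used here. The comparisons ask how these genes differ between genotypes on each day and how they change between the days.

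Retinoic acid is made from retinol by way of retinal. Retinal dehydrogenases of the Aldh1a family carry out the last, irreversible step, Dhrs3 turns retinal back into retinol, and Cyp26 enzymes oxidise retinoic acid so that it is cleared. Inside the cell it is carried by the Crabp proteins and acts through nuclear receptors, the RARs, which pair with RXRs on DNA elements made of repeated half-sites. In the nervous system the signal is known for patterning the hindbrain and spinal cord through Hox genes, and for promoting the exit of neural precursors into differentiation.

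Response elements of this kind were looked for in the promoters because both Rarb and Cyp26a1 are textbook direct targets. The pattern searched was a pair of half-sites in the same orientation, each with A or G, then G, then G or T, then TCA, spaced by 5, 2 or 1 bases (DR5, DR2, DR1), on both strands. RefSeq promoter windows (GRCm38.p6 table) of 300 bases, 250 before the start site and 50 from it on, covered 8 of the 10 genes with 14 windows. Aldh1a3 and Crabp2 had no window and were not searched. A DR5 was present in 32 of 32851 windows of all genes (0.0974%), a DR2 in 0.268% and a DR1 in 0.222%. Among the 14 windows it was found in the only window of Rarb and in the only one of Cyp26a1, and neither DR2 nor DR1 was found. Both windows are printed 5′ to 3′ in the sense of the gene, with the DR5 in capitals, and each had 1 exact match on its chromosome in mm9, the build of the expression tables. The Rarb window lies at chr14:17407941-17408240, minus strand, inside the Rarb locus of the tables, and its element starts 53 bases before the start site. The Cyp26a1 window lies at chr19:37772048-37772347, plus strand. Its element starts 32 bases before the start site and is read on the opposite strand, where the half-sites are the capitals in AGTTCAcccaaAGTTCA. In Rarb the same reading on the sense strand gives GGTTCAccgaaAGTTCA. A match of letters describes the window and says nothing about occupancy.
Rarb: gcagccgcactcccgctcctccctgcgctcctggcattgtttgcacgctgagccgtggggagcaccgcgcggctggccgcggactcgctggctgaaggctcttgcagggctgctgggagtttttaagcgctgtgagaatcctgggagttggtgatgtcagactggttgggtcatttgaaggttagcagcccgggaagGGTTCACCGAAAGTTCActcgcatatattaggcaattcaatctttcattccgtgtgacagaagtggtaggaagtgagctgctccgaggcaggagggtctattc
Cyp26a1: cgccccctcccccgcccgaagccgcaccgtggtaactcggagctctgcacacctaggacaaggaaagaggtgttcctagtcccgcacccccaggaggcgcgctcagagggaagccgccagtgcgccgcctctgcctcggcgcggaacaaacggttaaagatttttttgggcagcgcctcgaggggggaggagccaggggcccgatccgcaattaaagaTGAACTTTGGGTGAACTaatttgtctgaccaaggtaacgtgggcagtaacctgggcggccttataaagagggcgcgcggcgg

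The measure throughout is FPKM, sequenced fragments scaled to transcript length and library size, so levels can be set side by side between genes. Pairs of values give the sample numbered 1 first. A gene entered the tests when the mean of either genotype on either day exceeded an FPKM of 1, which held for 13214 genes and for 8 of the 10 described here. Aldh1a2 and Aldh1a3 stayed below it. Differences are log2 fold changes on log2(FPKM + 1) from limma, fitted over all 8 samples, with Benjamini-Hochberg adjustment over the 13214 genes and a threshold of 0.05. The design names the samples of a condition as biological replicates, and with n = 2 the tests rest on a spread shared across conditions. The relative sequencing depth, read from the steps between low FPKM values, spanned 1 to 1.30 across samples.

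**Figure D1:**
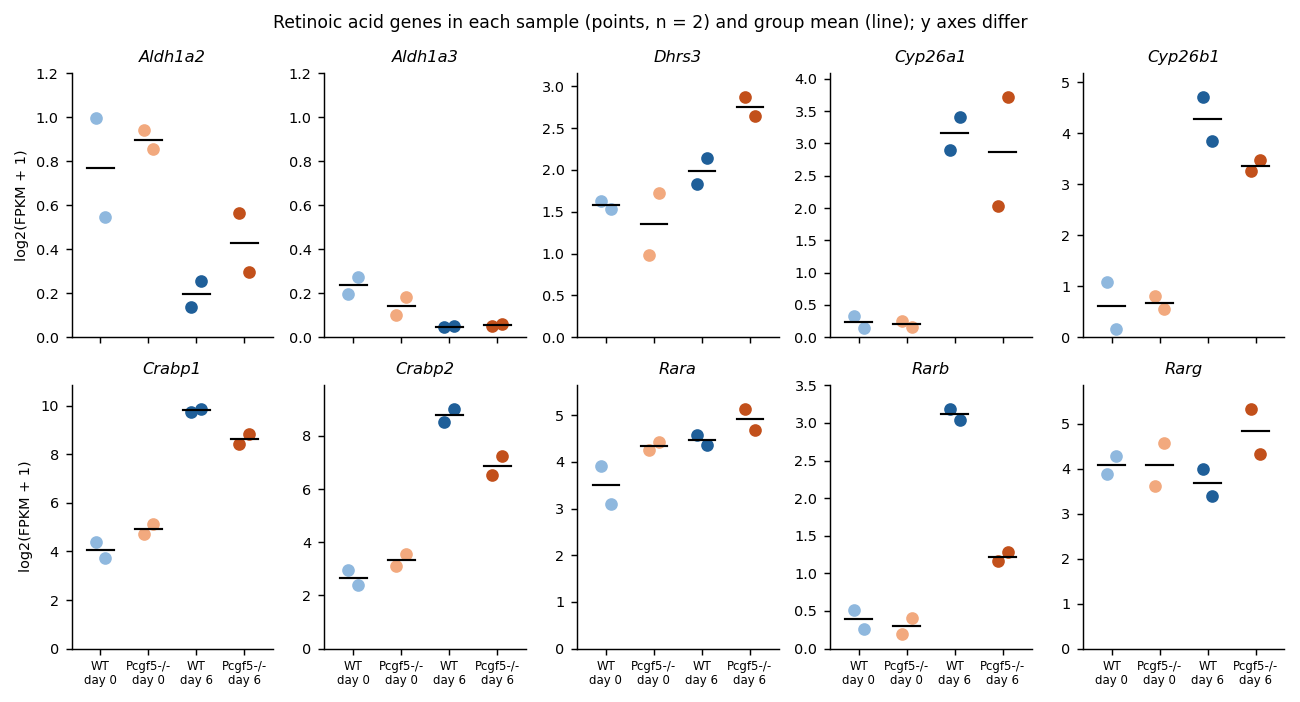
Level of each of the 10 genes as log2(FPKM + 1) in all 8 samples (points) with the mean of each condition (line), and a y axis of its own for each gene. At day 6 the Rarb, Crabp1 and Crabp2 points of Pcgf5-/- lie between those of day 0 and those of wild type at day 6.

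Pcgf5 itself was below wild type in both Pcgf5-/- samples on each day. Its FPKM was 5.18 and 3.63 in wild type against 1.28 and 1.84 in Pcgf5-/- at day 0 (log2 fold change -1.07, limma adjusted p = 0.105), and 9.16 and 5.06 against 0.669 and 0.457 at day 6 (-2.33, adjusted p = 0.00421). Summed FPKM of 12 feeder fibroblast markers, led by Col1a1, was 223 to 333 in wild type and 212 to 727 in Pcgf5-/- at day 0, with sample 2 of Pcgf5-/- the high one, and 32.9 to 50.3 in wild type and 15.0 to 20.3 in Pcgf5-/- at day 6. Sums of 6 primitive endoderm markers were 1.54 to 6.38 at day 0 and 7.68 to 16.9 in Pcgf5-/- at day 6, with 8.26 and 52.6 in wild type at day 6. Those of 6 mesoderm markers stayed between 2.47 and 8.84. The parts of these cells in the results were not tested. Genes on chromosomes 11 and 6 were shifted upward in Pcgf5-/- as a whole, with median log2 differences of 0.48 and 0.41 at day 0 and 0.38 and 0.37 at day 6, against 0.04 to 0.12 and -0.06 to 0.03 on the other chromosomes. Rara lies on chromosome 11 and Cyp26b1 on chromosome 6.

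In wild type, differentiation brought a steep rise of the binding proteins, both Cyp26 enzymes and Rarb, and a smaller one of Rara. Of the 8 genes tested, 6 rose between day 0 and day 6 and none fell (limma adjusted p under the threshold), beside 50.5% of all tested genes called in either direction and 34.2% called higher. Both day-6 samples lay above both day-0 samples for 7 of the 8, beside 49.5% of all tested genes higher and 77.6% without overlap in either direction. Of the calls over all genes, 67.8% were higher, and 51.3% with quantile normalization, under which the 6 calls remained. The median difference of the 8 was 2.83 on the log2 scale, beside 0.22 over all tested genes. In bulk RNA, a higher level per cell and a larger share of cells that express the gene cannot be told apart, here and in every result that follows.

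The cellular retinoic acid binding proteins reached the highest levels of the 10. Crabp1, which holds retinoic acid in the cytoplasm, had an FPKM of 19.9 and 12.4 in wild type at day 0 and 850 and 949 at day 6. All day-6 values lay far above those of day 0, with a log2 fold change of 5.74 (SE 0.24, adjusted p = 5.28e-06). Crabp2, which delivers retinoic acid to the receptors in the nucleus, went from 6.76 and 4.23 to 365 and 521, a log2 fold change of 6.10 (SE 0.30, adjusted p = 7.41e-06). All 4 Crabp2 values of day 6, in both genotypes, lay above the upper confidence bound that Cufflinks gave for them, so the bounds are not used as errors of that gene.

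The Cyp26 enzymes among the 10, which degrade retinoic acid, were low at day 0. Cyp26b1 had an FPKM of 1.12 and 0.112 in wild type at day 0 and 25.2 and 13.4 at day 6 (log2 fold change 3.66, SE 0.36, adjusted p = 0.000126). Cyp26a1, which carries the DR5 shown above, went from 0.250 and 0.106 to 6.48 and 9.65 (2.92, SE 0.47, adjusted p = 0.00127). Day-6 values of both exceeded every day-0 value. Dhrs3, which reduces retinal, was 2.09 and 1.88 at day 0 and 2.57 and 3.40 at day 6, and its difference of 0.41 did not pass the test (SE 0.27, adjusted p = 0.228).

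Of the receptors, Rarb changed most and Rarg did not pass. Rarb, the receptor whose promoter holds the other DR5, rose from 0.427 and 0.198 to 8.14 and 7.25 (log2 fold change 2.73, SE 0.19, adjusted p = 2.29e-05). Rara, the broadly expressed receptor, rose from 14.0 and 7.56 to 22.9 and 19.5 (0.97, SE 0.27, adjusted p = 0.0171). That call was lost without sample 2 of wild type at day 0 (adjusted p = 0.0904), without sample 1 of wild type at day 6 (0.0858) and with each chromosome centred on its own median (0.0551). Rarg was 13.7 and 18.6 at day 0 and 14.9 and 9.49 at day 6, overlapping ranges with a difference of -0.39 (SE 0.41, adjusted p = 0.447).

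The synthesising enzymes moved the other way at very low levels. Aldh1a2, the main retinal dehydrogenase of the embryo, had an FPKM of 0.994 and 0.461 in wild type at day 0 and 0.0996 and 0.195 at day 6. Aldh1a3, a second retinal dehydrogenase, had 0.145 and 0.211 at day 0 and 0.0323 and 0.0361 at day 6. Once scaled by the relative depth, the 4 day-6 values of Aldh1a3 in both genotypes differed by less than 1% from each other, the lowest level seen for the gene, and their lower Cufflinks bound was 0. With no minimum on FPKM, Aldh1a2 and Aldh1a3 were called lower at day 6 in wild type. That fit called 7069 of 19792 genes in either direction, 69.8% of them higher. The differences were -0.57 for Aldh1a2 (adjusted p = 0.0431) and -0.19 for Aldh1a3 (adjusted p = 0.0158), which the added 1 in log2(FPKM + 1) keeps small. Summed FPKM of Aldh1a2 and Aldh1a3 was 0.671 and 1.14 at day 0 and 0.132 and 0.231 at day 6 in wild type.

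Binding proteins, Cyp26 enzymes and Rarb rose in Pcgf5-/- cells as well, and so did Dhrs3. There too, 6 of 8 rose and none fell, beside 32.3% of all tested genes called in either direction and 21.9% called higher, and the median was 2.04 against 0.13 over all tested genes. Day-6 samples lay above those of day 0 for 7, beside 43.3% of all tested genes higher and 68.4% without overlap in either direction. Crabp1 went from 25.1 and 34.0 to 348 and 452 (log2 fold change 3.72, SE 0.24, adjusted p = 8.97e-05). Crabp2 went from 7.63 and 10.9 to 90.3 and 149 (3.53, SE 0.30, adjusted p = 0.000231). Every day-6 value again stood above every day-0 value.

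Cyp26b1 in Pcgf5-/- rose from 0.741 and 0.470 to 8.59 and 10.1 (log2 fold change 2.69, adjusted p = 0.00149). Cyp26a1 rose from 0.187 and 0.117 to 3.09 and 12.1 (2.67, adjusted p = 0.00434), and its day-6 samples lay far apart, sample 2 being the higher. Dhrs3 rose from 0.975 and 2.31 to 6.31 and 5.25 (1.40, SE 0.27, adjusted p = 0.00594). The change of Dhrs3 over time passed in Pcgf5-/- and not in wild type, and the difference between those changes, 0.99 (SE 0.38), did not pass (adjusted p = 0.167).

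Rarb in Pcgf5-/- rose from 0.143 and 0.328 to 1.24 and 1.43 (log2 fold change 0.92, SE 0.19, adjusted p = 0.00817). Without sample 1 of Pcgf5-/- at day 0 the adjusted p was 0.0511. Rara was 18.2 and 20.4 at day 0 and 34.3 and 24.7 at day 6 (0.57, adjusted p = 0.138), and Rarg was 11.2 and 22.8 at day 0 and 39.6 and 19.05 at day 6 (0.74, adjusted p = 0.200). Aldh1a2 was 0.918 and 0.811 at day 0 and 0.480 and 0.227 at day 6, below the minimum for the test. Aldh1a3 was 0.0743 and 0.136 at day 0 and 0.0345 and 0.0419 at day 6.

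Before differentiation no gene of the 10 was called between genotypes. Of the 8 tested, 0 passed in limma, beside 0.333% of all tested genes. An unadjusted p under 0.05 was reached by 2, Crabp1 and Rara, beside 17.4% of all tested genes. The study's methods take the fold in paired samples with a 1.5-fold cutoff, and its results count day-0 genes at more than 3-fold. Applied to the group means, a 1.5-fold cutoff picks 3, Crabp1, Crabp2 and Rara, beside 18.7% of all tested genes. These 3 were also the ones whose Pcgf5-/- samples both lay above both wild-type samples, beside 34.6% of all tested genes higher and 47.9% without overlap in either direction. Their log2 differences were 0.85 (SE 0.24, adjusted p = 0.118), 0.67 (SE 0.30, adjusted p = 0.305) and 0.84 (SE 0.27, adjusted p = 0.159). For Rara the median of its chromosome, 0.48, stands beside that value. The other 5 had overlapping samples and log2 differences from -0.22 (Dhrs3) to 0.06 (Cyp26b1), and Cyp26b1 varied widely within wild type, where its FPKM was 1.12 in sample 1 and 0.112 in sample 2.

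**Figure D2:**
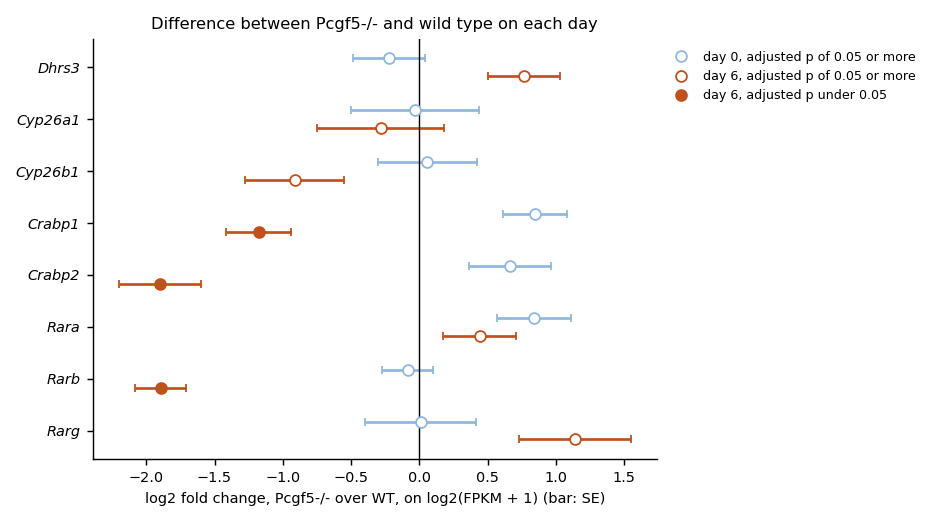
Log2 fold change of Pcgf5-/- over wild type on log2(FPKM + 1) for the 8 tested genes, with the standard error as a bar, at day 0 (light) and day 6 (dark). Filled points mark an adjusted p under 0.05, which only Crabp1, Crabp2 and Rarb reached, at day 6 and on the lower side.

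At day 6 both binding proteins and Rarb were lower in Pcgf5-/- than in wild type. Of the 8 tested, 3 were called lower and 0 higher, beside 16.6% of all tested genes called in either direction, 7.05% lower and 9.57% higher. The groups did not overlap for 7 of the 8, beside 62.2% of all tested genes. Of these, 4 were lower and 3 higher in Pcgf5-/-, beside 28.8% and 33.4% of all tested genes. The median of the 8 log2 differences was -0.60, beside 0.02 over all tested genes.

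Rarb had an FPKM of 8.14 and 7.25 in wild type and 1.24 and 1.43 in Pcgf5-/- at day 6, samples close together within each genotype and far apart between them. Its mean in Pcgf5-/- was 0.174 of that in wild type, with a log2 fold change of -1.90 (SE 0.19, adjusted p = 0.00377). It passed under each alternative tried, including every left-out sample, with adjusted p between 0.00266 and 0.0349.

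Crabp2 had 365 and 521 in wild type and 90.3 and 149 in Pcgf5-/-, a mean of 0.270 of the wild-type mean (log2 fold change -1.90, SE 0.30, adjusted p = 0.00868). Crabp1 had 850 and 949 against 348 and 452, a mean of 0.445 of wild type (-1.18, SE 0.24, adjusted p = 0.0159). For both, each Pcgf5-/- sample lay below each wild-type sample. Without sample 1 of Pcgf5-/- at day 6, neither passed (adjusted p = 0.0570 for Crabp2 and 0.0990 for Crabp1), and the same held without sample 2 of wild type at day 6 (0.0543 and 0.0910). Even at the lower level, Crabp1 and Crabp2 stayed the top genes of the 10 in Pcgf5-/- at day 6, apart from each other and from Rara, the next one.

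The receptors Rarg and Rara lay on the other side at day 6. Rarg, a receptor known from cartilage and skin, had 14.9 and 9.49 in wild type and 39.6 and 19.05 in Pcgf5-/- (log2 difference 1.14, SE 0.41, adjusted p = 0.0919). Rara had 22.9 and 19.5 against 34.3 and 24.7 (0.44, SE 0.27, adjusted p = 0.294), beside the chromosome 11 median of 0.38. Neither passed, although their samples did not overlap, and the Pcgf5-/- samples of Rarg lay further apart than those of Rara. With the sample number as a block within each day, Rarg passed (adjusted p = 0.0117). The labels do not say what a shared number stands for, the study's methods speak of pairs without naming them, and sample differences with the same number correlated at 0.39 between genotypes at day 6.

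**Figure D3:**
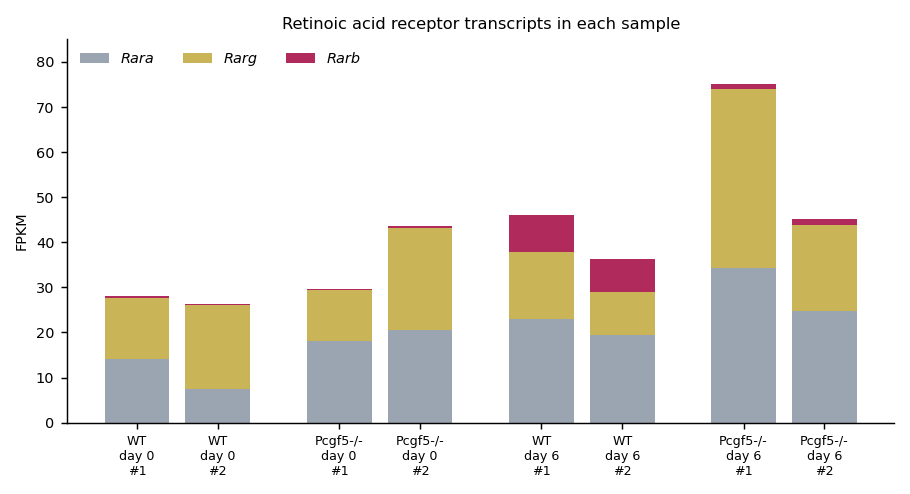
FPKM of Rara, Rarg and Rarb stacked in each of the 8 samples, from 0 upward. Rarb is 17.7% and 20.0% of the sum in wild type at day 6 and at most 3.16% in the other samples.

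The makeup of the receptor transcripts differed accordingly. Rarb made up 17.7% and 20.0% of the summed FPKM of the 3 receptors in wild type at day 6 and 1.65% and 3.16% in Pcgf5-/-, and 0.484% to 1.52% in the 4 day-0 samples. The sum itself was 46.0 and 36.3 in wild type and 75.1 and 45.2 in Pcgf5-/- at day 6, overlapping. Rarg took 32.4% and 26.2% of it in wild type and 52.7% and 42.1% in Pcgf5-/-. The ratio of Crabp1 to Crabp2 was 2.33 and 1.82 in wild type and 3.85 and 3.03 in Pcgf5-/- at day 6, and 2.94 to 3.28 in the day-0 samples. These shares and ratios are descriptions with no test.

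The enzymes did not differ between genotypes past the threshold at day 6. Cyp26b1 had 25.2 and 13.4 in wild type and 8.59 and 10.1 in Pcgf5-/-, without overlap (log2 difference -0.91, SE 0.36, adjusted p = 0.122). Set against the median of chromosome 6, which was higher in Pcgf5-/-, its difference was -1.31 (adjusted p = 0.0472). Cyp26a1 had 6.48 and 9.65 against 3.09 and 12.1, with both wild-type values between those of Pcgf5-/- (-0.28, SE 0.47, adjusted p = 0.718).

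Dhrs3 had 2.57 and 3.40 in wild type and 6.31 and 5.25 in Pcgf5-/-, without overlap (0.77, SE 0.27, adjusted p = 0.0830). Aldh1a2 had 0.0996 and 0.195 against 0.480 and 0.227, the Pcgf5-/- samples being above those of wild type at levels below the minimum, and with no minimum the difference was 0.23 (adjusted p = 0.445). Of the 2 genes with a DR5 window, Rarb was called lower at day 6 and Cyp26a1 had overlapping samples. Of the 31 genes of the genome with such a window only 4 entered the tests: these 2, Syndig1 (0.51, adjusted p = 0.388) and Blvrb (1.26, adjusted p = 0.00651).

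The genotype effect itself differed between the days for the same 3 genes. The interaction, the log2 difference at day 6 minus that at day 0, was -2.57 for Crabp2 (SE 0.43, adjusted p = 0.0305), -2.03 for Crabp1 (SE 0.33, adjusted p = 0.0305) and -1.81 for Rarb (SE 0.27, adjusted p = 0.0269). That is 3 of 8 called, all lower, beside 3.09% of all tested genes called in either direction and 1.75% called lower. These calls were sensitive: with no minimum on FPKM none remained (adjusted p = 0.0767 for Crabp1 and 0.0553 for Rarb), and none remained without sample 2 of wild type or of Pcgf5-/- at day 0, sample 2 of wild type at day 6, or either sample of Pcgf5-/- at day 6. The interaction fell short for Rarg (1.13, adjusted p = 0.282), Dhrs3 (0.99, adjusted p = 0.167), Cyp26b1 (-0.97, adjusted p = 0.296), Rara (-0.40, adjusted p = 0.565) and Cyp26a1 (-0.25, adjusted p = 0.846).

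Ordered by level on the FPKM scale, the 10 genes formed a similar series in both genotypes. At day 0 Crabp1, Rarg and Rara led in wild type with overlapping ranges of 12.4 to 19.9, 13.7 to 18.6 and 7.56 to 14.0, followed by Crabp2 and then Dhrs3, each apart from the next. Below Dhrs3 came Aldh1a2, Cyp26b1, Rarb, Cyp26a1 and Aldh1a3, whose neighbours overlapped. At day 6 in wild type Crabp1 and Crabp2 stood apart, Rara, Cyp26b1, Rarg, Cyp26a1 and Rarb followed, each overlapping its neighbour, and Dhrs3, Aldh1a2 and Aldh1a3 came last, each apart. In Pcgf5-/- at day 6 Rarb came after Dhrs3 and Cyp26b1 after Rarg, in each case with no overlap.

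Markers of the cells present moved with these differences. All 6 neural progenitor markers (Sox1, Pax6, Nes, Fabp7, Hes5, Zbtb16) and 4 of 6 neuron markers were called lower in Pcgf5-/- at day 6. Of all tested genes, 7.05% were called lower and 9.57% higher. The summed FPKM of the progenitor markers was 279 to 286 in wild type and 97.7 to 113 in Pcgf5-/-, and that of the neuron markers 319 to 443 and 150 to 164. At day 0 the neuron marker sum was already 173 to 176 in wild type and 149 to 176 in Pcgf5-/-. Most of it was Stmn2, with 132 and 113 in wild type at day 0. All 7 pluripotency markers were called higher, with sums of 157 to 352 and 928 to 938. The feeder fibroblast sums given above were also lower in Pcgf5-/- at day 6, without overlap. Of the 11 markers tested, 6 had both Pcgf5-/- samples below both wild-type samples and 1 had them above. The shares over all tested genes were 28.8% and 33.4%. Of the 11, 1, Lox, was called lower (-1.76, adjusted p = 0.0474), beside 7.05% of all tested genes. The part of these markers in the lower Rarb, Crabp1 and Crabp2 was not tested.

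Other genes of the pathway were read from 4 lists of 51 genes, of which 38 entered the tests. At day 6, 9 were called lower and 1 higher in Pcgf5-/-, beside 7.05% and 9.57% of all tested genes, with a median log2 difference of -0.25 beside 0.02 over all tested genes. At day 0 none of the 38 was called by limma, and 3 had an unadjusted p under 0.05, beside 17.4% of all tested genes. Over time in wild type 23 rose and 5 fell, beside 50.5% of all tested genes called in either direction, and in Pcgf5-/- 18 rose and 3 fell, beside 32.3%. The interaction passed for 2, beside 3.09% of all tested genes, both lower: Nr2f1 (-2.84, SE 0.39, adjusted p = 0.0243) and Meis1 (-1.23, SE 0.24, adjusted p = 0.0426). With no minimum on FPKM neither passed (0.0583 and 0.0704). Meis1 lost the call with any sample left out (0.0558 to 0.151) and with chromosome centring (0.0511). Nr2f1 lost it without sample 2 of wild type (0.104) or Pcgf5-/- (0.0798) at day 0, sample 2 of wild type at day 6 (0.0622), or sample 1 (0.105) or 2 (0.0598) of Pcgf5-/- at day 6.

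Most of the day-6 calls fell in the list of retinoic acid targets, where 7 of 16 were lower and 1 was higher. Of all tested genes, 7.05% were called lower and 9.57% higher. The median of the list was -0.98, beside 0.02 over all tested genes. This list, like the others, was chosen with earlier results of these data known, so its counts are a description. Nr2f1, an orphan nuclear receptor that responds to retinoic acid, had 26.5 and 38.0 in wild type and 2.89 and 5.32 in Pcgf5-/- (log2 fold change -2.72, SE 0.27, adjusted p = 0.00377), and it passed in every alternative. Its relative Nr2f2 had 24.7 and 38.4 against 8.39 and 11.0 (-1.58, SE 0.25, adjusted p = 0.00843). Groups did not overlap for either gene.

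The others were Hox genes, which give position along the body axis, and Meis genes, which code for Hox cofactors. Hoxb2 had 28.3 and 41.7 against 8.82 and 16.2 (-1.44, adjusted p = 0.0341), and Hoxd4, at low level, 2.99 and 1.71 against 0.374 and 0.113 (-1.41, adjusted p = 0.00991). Hoxa2 had 27.2 and 38.3 against 15.0 and 15.2 (-1.05, adjusted p = 0.0188). Meis2 (-1.11, adjusted p = 0.0255) and Meis1 (-0.91, adjusted p = 0.0132) were also lower, and neither had overlapping samples. Meis2 lay lower in Pcgf5-/- at day 0 too, with 3.01 and 2.83 against 6.64 and 12.6 (-1.38, adjusted p = 0.0628), and its interaction was 0.27 (adjusted p = 0.696).

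The list was not uniform. Bhlhe40, a basic helix-loop-helix repressor, had 5.81 and 4.01 in wild type and 10.5 and 10.5 in Pcgf5-/- at day 6 (0.97, adjusted p = 0.0307), and it lies on chromosome 6, where centring lowered its difference to 0.57 (adjusted p = 0.152). Stra8 had 2.48 and 8.96 against 12.5 and 71.2 (2.41, SE 0.85, adjusted p = 0.0874), with the widest spread of the list.

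Among partners and carriers, Rxra, an RXR that pairs with the RARs, had 15.5 and 14.2 in wild type and 9.29 and 7.86 in Pcgf5-/- at day 6 (-0.73, SE 0.18, adjusted p = 0.0286). Rxrb had 15.6 and 17.6 against 15.1 and 16.9 (-0.05, SE 0.14, adjusted p = 0.852), and Rxrg, listed at 0 in all 4 day-0 samples, had 0.763 and 0.544 against 1.54 and 1.08 (0.48, adjusted p = 0.0997). Fabp5, a fatty acid binding protein that can also carry retinoic acid, had 70.9 and 67.7 against 26.4 and 45.4 (-0.98, SE 0.23, adjusted p = 0.0250). It was the only one of 4 tested genes of retinol uptake and storage to pass, beside 16.6% of all tested genes called in either direction. Of 8 tested retinol and retinal enzymes none passed in limma. Among them 1, Aldh1a7, had an unadjusted p under 0.05, beside 4315 of all 13214 tested genes.

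**Figure D4:**
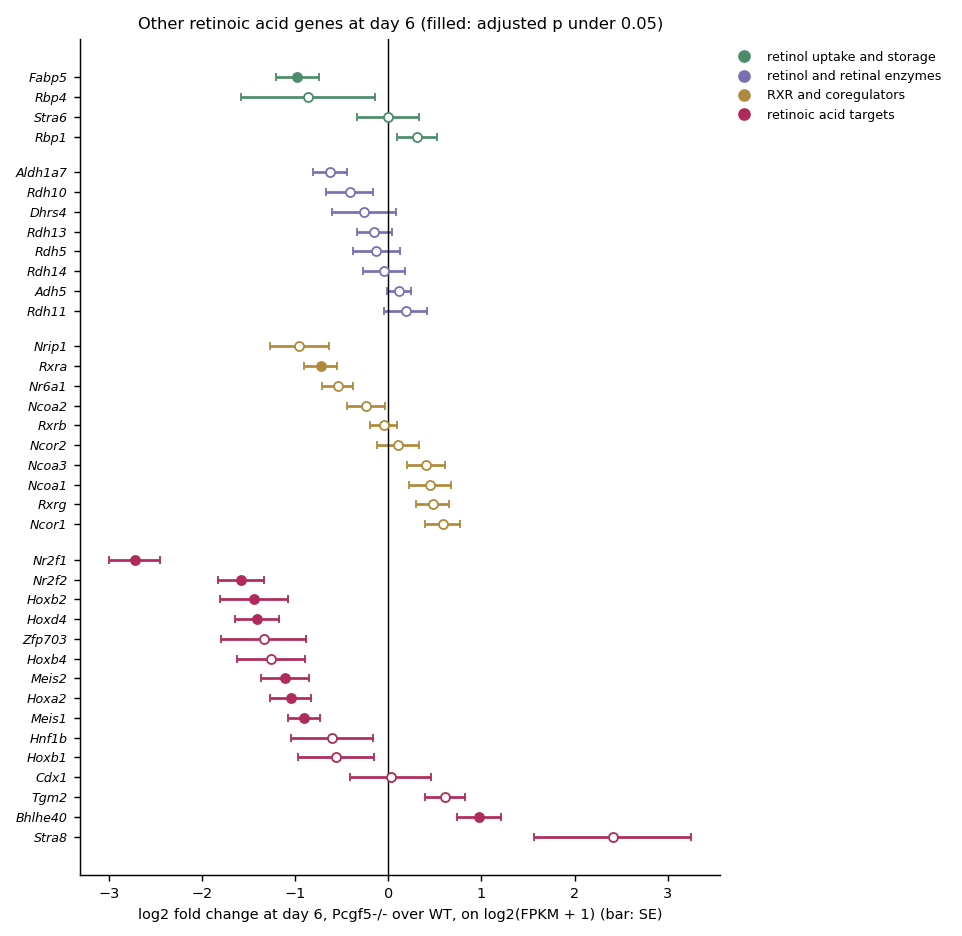
Log2 fold change of Pcgf5-/- over wild type at day 6 on log2(FPKM + 1) for the tested genes of the 4 pathway lists apart from 1 that is not reported here, with the standard error as a bar and 1 colour per list. Filled points mark an adjusted p under 0.05: 9 lower, led by Nr2f1 at -2.72, and 1 higher, Bhlhe40.

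Leaving out 1 sample ended several of these calls. Nr2f2, Hoxb2, Hoxd4, Meis2, Hoxa2, Fabp5, Bhlhe40, Meis1 and Rxra each lost theirs without sample 1 of Pcgf5-/- at day 6, with adjusted p from 0.0505 for Hoxd4 to 0.183 for Hoxb2. Apart from Hoxd4, the same genes lost it without sample 2 of wild type at day 6, from 0.0512 for Nr2f2 to 0.187 for Hoxb2. Without sample 2 of Pcgf5-/- at day 6, Hoxd4 (0.0512), Meis2 (0.0649), Hoxa2 (0.0737), Bhlhe40 (0.106) and Rxra (0.125) did not pass. Without sample 1 of wild type at day 6, Hoxb2 (0.0617), Meis2 (0.0690), Fabp5 (0.0968), Meis1 (0.0591) and Rxra (0.137) did not. Hoxb2 also failed without either wild-type sample of day 0 (0.0539 and 0.0541). With no minimum on FPKM, Hoxb2 (0.0874), Meis2 (0.0647), Fabp5 (0.0619) and Bhlhe40 (0.0686) did not pass. With a pseudocount of 0.1, Hoxb2 (0.125) and Hoxa2 (0.155) did not, nor did Hoxd4 (0.0532) at 0.01. Fabp5 did not pass in a fit of the day-6 samples alone (0.0666).

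Genes whose pattern was most like that of each member were ranked by Pearson r of log2(FPKM + 1) over the 8 samples, as a description. The samples share 4 conditions, so r mostly follows the difference between days and genotypes. For Rarb the nearest were 9330159F19Rik, Rgag4 and 2900092D14Rik, each with r of 0.997. Crabp2 was nearest to Kif3c (0.999), Nuak1 and Micu2 (0.998 each), and Crabp1 to AU040320, Sox11 (0.998 each) and Wscd1 (0.997). Cyp26b1 was nearest to Dll4 (0.994), Ndnf (0.993) and Jph3 (0.992), and Cyp26a1 to Ilkap (0.994), Eno1b (0.993) and Gm14827 (0.992). Lower values stood at the top for Dhrs3 (Tdp1, 0.988), Rarg (AI846148, 0.971) and Rara (Armc7, 0.970).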

How the data were processed

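PolyA+ RNA was sequenced from 8 samples, 2 for each genotype and day, and grouped by their labels. The authors trimmed reads and removed duplicates, mapped pairs to mm9 with TopHat2 2.0.4 and deposited gene FPKM values with confidence bounds from Cufflinks 2.1.1 (versions per the submitters' processing notes). Removal of identical reads can lower the FPKM of abundant genes. The annotation is not given in the sources used here, and fragment counts were not used. Relative depth came from the modal ratio of FPKM values under 0.5.

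The genes and lists were chosen with earlier results of these data known. Values were joined by symbol and locus, kept where any of the 4 condition means exceeded an FPKM of 1, and fitted with limma 3.58.1 (R 4.3.3) on log2(FPKM + 1) with a variance trend and no block, over all 8 samples. Calls had a Benjamini-Hochberg adjusted p under 0.05 over 13214 genes. The fit was tested on simulated data. Named genes were the 10 members, the pathway genes past the threshold at day 6 and the 3 RXRs. Stra8, Aldh1a1, Aldh1a7, Syndig1 and Blvrb were named after their values were seen, as was Lox. The values of 1 listed target gene are not reported here. Alternatives were other pseudocounts, filters, quantile normalization, chromosome centring, replicate blocks, the compared groups alone and no variance trend. Further ones were a 1.5-fold rule on the group means, at the cutoff of the study's methods, and leaving out each sample. Promoter windows came from the RefSeq table and were placed in mm9 (NCBIM37) by exact match.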

Additional observations from a re-analysis of the deposited data

Results flagged for a closer look

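The genotype effect at day 6 differed from that at day 0, by the interaction term in limma, for 3 of the genes. It was -2.57 on the log2 scale for Crabp2, where Pcgf5-/- was above wild type in both samples at day 0 (FPKM 7.63 and 10.9 against 6.76 and 4.23) and below it in both at day 6. It was -2.03 for Crabp1, with the same arrangement of samples. It was -1.81 for Rarb, whose day-0 samples overlapped between genotypes. Day-0 feeder marker sums were uneven (212 to 727 in Pcgf5-/-), and their part in the day-0 levels was not tested.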

How the results depend on the processing

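The count of genes called between genotypes at day 0 moved from 0 to 3 under the 1.5-fold rule on the group means. It stayed at 0 when each sample was left out. At day 6 it moved from 3 to 6 under that rule, which picks 31.0% of all tested genes, and ranged from 1 to 4 over left-out samples. It was 1, Rarb, without sample 1 of Pcgf5-/- or sample 2 of wild type at day 6, and 4 without either day-0 sample of Pcgf5-/-, when Dhrs3 passed (adjusted p = 0.0453 and 0.0449). The interaction count moved from 3 to 0 with no filter and ranged from 0 to 3 over left-out samples. Over time it ranged from 5 to 6 over left-out samples in each genotype. In wild type it reached 8 with no filter, where Aldh1a2 and Aldh1a3 were called lower, beside 7069 of 19792 genes called in either direction. In Pcgf5-/- it reached 8 under the 1.5-fold rule, which there picks 40.7% of all tested genes. With pseudocounts of 0.1 and 0.01 Rarb lost the interaction call (adjusted p = 0.0982 and 0.169).

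Directions turned only for differences that had not passed. Cyp26b1 at day 0 became -0.033 with quantile normalization and -0.38 with chromosome centring, Rarg at day 0 became -0.10 with each, and Dhrs3 over time in wild type became -0.081 with quantile normalization. Over left-out samples the day-0 differences spanned -0.60 to 0.15 for Dhrs3, -0.12 to 0.058 for Cyp26a1, -0.41 to 0.52 for Cyp26b1, -0.21 to 0.041 for Rarb and -0.47 to 0.49 for Rarg. At day 6 they spanned -1.13 to 0.56 for Cyp26a1 and -0.13 to 0.035 for Rxrb. The interaction spanned -1.10 to 0.59 for Cyp26a1 and -0.80 to 0.0083 for Rara. The causes were not tested.

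The labels do not say whether a shared replicate number pairs samples. Replicate differences correlated at 0.10 between genotypes at day 0, 0.39 at day 6 and -0.08 to -0.02 across days. In a fit with a replicate block the calls among the 10 genes stayed at 0, 3, 6, 6 and 3 (day 0, day 6, time in wild type, time in Pcgf5-/-, interaction). With a replicate block for each day they were 0 at day 0, 4 at day 6 and 3 for the interaction, since Rarg then passed at day 6. In that fit the change over time is read at sample number 1, not at the mean of the samples. It is therefore not the same quantity as in the main fit. Its counts were 6 in wild type and 7 in Pcgf5-/-, with Rarg at 0.36 and 1.49 (adjusted p = 0.00754 for Pcgf5-/-). Over all genes, calls at day 0 fell from 44 to 1 with the block and rose to 282 with the block for each day, and interaction calls went from 408 to 429 and 1167. Other settings gave 0 to 102 calls at day 0. At day 6, 2197 calls became 1647 to 2410 under other settings apart from the block for each day (3235), and 297 without sample 1 of Pcgf5-/-, 502 without sample 2 of wild type, 921 without sample 2 of Pcgf5-/- and 1173 without sample 1 of wild type at day 6. Interaction calls were 86 with no filter, 191 and 251 with the smaller pseudocounts, and 4 to 347 over left-out samples. The share of higher calls at day 6 was 57.6%, and 46.7% with chromosome centring. Over time in Pcgf5-/- it was 67.9%, and 53.1% with quantile normalization, and for the interaction 43.4%, and 57.7% with quantile normalization. Calls over time in Pcgf5-/- went from 4271 to 2367 and 3080 without sample 1 or 2 of Pcgf5-/- at day 0, and to 2657 and 2401 without sample 1 or 2 at day 6. Read totals are unknown, so the depth behind genes such as Aldh1a3 is known only in relative terms.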
